A study of Mus musculus with 48 samples.

Results

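The distal mixed Ighv1 and Ighv8 block spans 600 kb of Igh, the heavy chain locus of mouse antibodies, on the side far from the D and JH segments, where VH genes of the Ighv1 and Ighv8 families alternate. Its junctions were chosen by position alone: those of the full JH-bait lists on chromosome 12 from 116.5 to 117.1 Mb of mm9, leaving out the intervals 116886148 to 116886191 and 116930093 to 116930134. This gave 60274 of the 605816 junctions in the VH region. The first interval covers the lower-coordinate end of Ighv8-12 (116886172 to 116886572). Rankings of block sites and shares of the Ighv8 family below leave out the joints in both intervals. Junction positions no more than 20 bp apart on the same strand were joined into sites, and the block held 214 of the 857 sites of the VH region. Of these, 89 held at least 10 junctions, and the other 125 held 441 junctions together. The annotation lists 23 VH entries in the block, 17 of the Ighv1 family and 6 of the Ighv8 family, all on the minus strand, so a lower coordinate lies nearer to the D and JH segments. Below, near to D always refers to this reference order, which may not hold where the locus is inverted.

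Junctions were read by LAM-HTGTS, in which a primer at a bait segment, here JH1 to JH4, is extended in linear amplification and the joint to its partner DNA (the prey) is sequenced. The 25 libraries fell into 8 groups, and the labels list RAG1 deficiency for all of them, bone marrow included, with no step that restores RAG1. Bone marrow (BM) pro-B cells came from C57BL/6 mice, were enriched on anti-B220 beads and were grown with IL-7 (10 ng/mL) and SCF (2 ng/mL). They were sampled as WT BM (wild type, 3 libraries used) and as INV BM (titled INV and labelled with an Igh inversion, 4 libraries). A further wild-type library, titled replicate 4, was left out, since its full junctions were not at hand. The other 18 of the 25 libraries came from v-Abl transformed pro-B lines with an Emu-Bcl2 transgene and OsTIR1. All were held in STI-571, which inhibits the Abl kinase, at 3 uM for 4 days. They comprised a line titled Primary, which carries no Wapl degron in its labels and is called the parental line here, untreated; a Wapl-degron line untreated and with IAA and Dox; a single-Igh line untreated and with IAA and Dox; and an inverted single-Igh line with IAA and Dox, 3 libraries each. The labels of the single-Igh and inverted single-Igh lines list the Wapl degron too. IAA was given at 150 uM for 3 days. IAA and Dox trigger removal of Wapl, the factor that releases cohesin from chromatin. The inversion of the last line is given by its title and not by its characteristics, the ends of both inversions are not in the labels, and the labels do not say whether replicates came from separate animals or cultures, so p-values measure only the spread between these libraries, which may be technical.

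RAG cuts DNA at recombination signal sequences, each made of a heptamer, a spacer and a nonamer, and joins segments whose spacers differ in length. VH genes lie in the same transcriptional orientation as D and JH segments, so the usual joint of a VH gene to the bait deletes the DNA between them and is read here on the plus strand. Loop extrusion by cohesin can carry distant VH genes past a RAG-bound recombination centre, and distal VH genes such as those of the Ighv1 family depend on contraction of the locus to be used.

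The block's signals are shown first because its families differ in the very letters at which RAG cuts. Each line gives the mm9 reference, read toward the heptamer from the joined side: 20 bases of the joined end, the 7 letters at the heptamer position in capitals, a spacer of 23 and the 9 letters at the nonamer position in capitals.
Ighv1-64: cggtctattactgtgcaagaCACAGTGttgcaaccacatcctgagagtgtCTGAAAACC
Ighv1-72: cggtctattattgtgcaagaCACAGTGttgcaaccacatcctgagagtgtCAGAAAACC
Ighv1-76: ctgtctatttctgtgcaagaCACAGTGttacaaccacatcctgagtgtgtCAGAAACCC
Ighv1-58: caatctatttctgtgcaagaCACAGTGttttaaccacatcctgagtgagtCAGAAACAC
Ighv8-8 and Ighv8-11: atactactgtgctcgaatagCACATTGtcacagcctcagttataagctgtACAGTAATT
Ighv8-9: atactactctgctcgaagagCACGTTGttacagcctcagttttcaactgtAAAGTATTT
These stretches lie at chr12:116745717-116745775 (Ighv1-64), chr12:116996156-116996214 (Ighv1-72), chr12:117086053-117086111 (Ighv1-76), chr12:116550338-116550396 (Ighv1-58), chr12:116532234-116532292 (Ighv8-8), chr12:116805321-116805379 (Ighv8-11) and chr12:116706504-116706562 (Ighv8-9), and are written from the minus strand. Each runs from the coding exon of its gene into the flank on the D side, for example past the lower-coordinate end of Ighv1-64 (116745756 to 116746188).

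The exact heptamer CACAGTG stood within 15 bases of the junctions at 14 of the 15 Ighv1 gene sites with at least 10 junctions and at 0 of the 3 Ighv8 gene sites. Of all positions of the VH region, taken on either strand, 0.211% had it within the same distance. Its first 4 letters, CACA, which overlap it, were found near 82.0% of the block's 89 sites, near 82.6% of the 380 such sites of the VH region and near 8.71% of all positions. The sites of Ighv8-8 and Ighv8-11 share all 59 letters printed above. Ighv1-59, Ighv1-62-3 and Ighv1-69 also share theirs, as do Ighv1-62-2 and Ighv1-71, so 7 of the 18 gene sites cannot be told apart by these letters and how reads were divided among them is uncertain.

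Plus-strand gene sites carried most of the block: 18 sites at annotated genes held 55260 junctions. A further 30 plus-strand sites with no annotated gene held 2650. On the minus strand, 12 gene sites held 417 junctions and 29 sites with no annotated gene held 1506. Of the 23 entries, 19 had a site and 18 had a site of at least 10 junctions. Ighv1-62-1, Ighv1-73 and Ighv8-14 had no site within 20 bp of their annotated entries. Ighv8-12 had no junction outside the interval left out, and Ighv8-13 had 4 plus-strand and 6 minus-strand junctions.

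The 2 most used plus-strand sites without an annotated gene carry the letters of an Ighv1 signal, with the exact heptamer.
position 117028804: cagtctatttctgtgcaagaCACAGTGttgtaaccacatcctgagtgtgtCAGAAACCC
position 116610197: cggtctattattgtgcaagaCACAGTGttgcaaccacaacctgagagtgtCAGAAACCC
They lie at chr12:117028765-117028823, where the nearest entry, Ighv1-73, starts 84 bp from the site, and at chr12:116610158-116610216, where Ighv1-61 is 12411 bp away. The first site lies on the D side of the Ighv1-73 entry (117028913 to 117029095), the side on which the gene signals printed above lie. Its junctions may thus belong to Ighv1-73, which was not tested. Position 117028804 held 373 junctions in WT BM, 148 in the treated Wapl-degron line and 260 in the treated single-Igh line. Position 116610197 held 832, 32 and 50. The first site thus took a mean of 0.758% of the block's junctions in WT BM and 4.00% and 6.11% in the treated lines, while the second took 1.73%, 0.818% and 1.18%.

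Depth differed widely between libraries. The lists held 61194 to 1016401 junctions, with 58563 to 848976 in the D and VH regions and 144 to 182742 in the VH region. Levels below are therefore given against a stated total, and a number per 100000 is per 100000 D plus VH junctions. No read has a molecular identifier, and so intervals and floors speak of counting error alone. In the Wapl-degron line with IAA and Dox, 28.4% of the lines of replicate 2 were surplus to its distinct read names (226216 lines, 161891 names). The share was at most 0.192% elsewhere.

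The block took a larger share of VH junctions in wild-type bone marrow and in uninverted lines with IAA and Dox than in untreated lines and both inverted groups. Its share of VH junctions was 15.3%, 11.9% and 11.96% in the WT BM libraries. It was 3.09%, 3.31%, 3.13% and 3.76% in INV BM. In the Wapl-degron line it was 2.00%, 1.28% and 0.703% untreated and 22.98%, 21.1% and 22.5% with IAA and Dox. Each treated library lay above all WT BM libraries, and each WT BM library above all INV BM and untreated ones. The single-Igh line gave 1.65%, 1.39% and 1.07% untreated and 25.4%, 21.1% and 23.7% with IAA and Dox. The inverted single-Igh line gave 0.694%, 2.96% and 1.96% and the parental line 1.05%, 1.82% and 0.975%. Replicate 2 of the inverted line lay above all 9 untreated libraries and replicate 1 below all of them, while the untreated libraries spanned 0.703% to 2.00%.

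**Figure D1:**
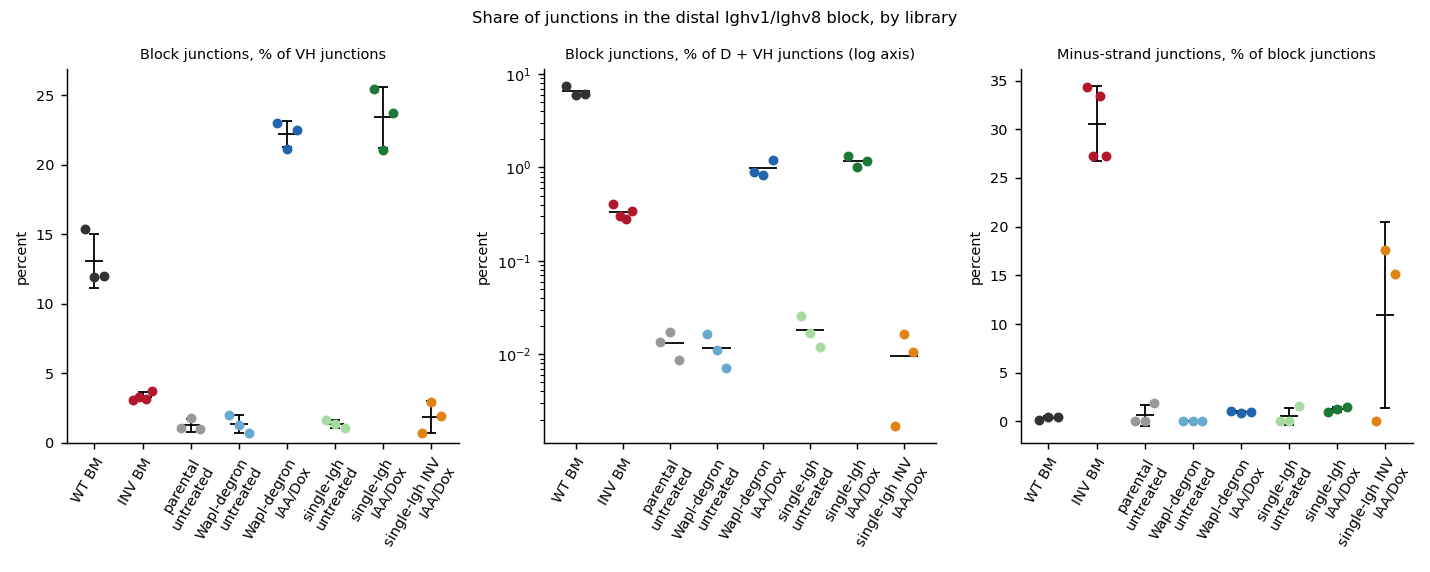
Share of junctions in the block for each of 25 libraries (points), by group, as percent of VH junctions, as percent of D plus VH junctions on a log axis, and as percent of the block's junctions on the minus strand; bars mark group means and, on the linear axes, whiskers mark SD. WT BM libraries sit at 11.9% to 15.3% of VH junctions and the libraries with IAA and Dox, without the inversion, at 21.1% to 25.4%, and INV BM has 27.2% to 34.3% of the block on the minus strand.

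Against D plus VH junctions, a total that also registers how often VH genes were joined at all, the order changed. The block then took 6.51% ± 0.771 (SD, n = 3) of junctions in WT BM and 0.331% ± 0.0536 (n = 4) in INV BM. With IAA and Dox its share was 0.975% ± 0.211 (Wapl-degron, n = 3) and 1.17% ± 0.152 (single-Igh, n = 3). Untreated lines had 0.0131% ± 0.00430 (parental), 0.0116% ± 0.00479 (Wapl-degron) and 0.0182% ± 0.00695 (single-Igh), and the inverted single-Igh line had 0.00950% ± 0.00734.

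In bone marrow, gene use within the block was spread over several Ighv1 genes and Ighv8-8. Ighv1-64 stood at 1213, 761 and 680 junctions per 100000 in the 3 WT BM libraries, Ighv8-8 at 870, 546 and 711, and Ighv1-75 at 680, 661 and 740. Ighv1-64 was first in replicates 1 and 2 and Ighv1-75 in replicate 3. Ighv1-72 (653, 707 and 660) and Ighv1-76 (621, 649 and 482) were used at similar levels. Ighv1-62-2 and Ighv1-71, with 83 and 54 junctions over the WT BM libraries, were the least used of the 18 genes, although their printed stretches are the same.

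The inversion in bone marrow was compared with wild type to ask how VH use depends on the orientation of the locus. Every plus-strand gene site of the block with enough junctions to be tested fell: 15 of 15 Ighv1 sites and 3 of 3 Ighv8 sites. Ighv1-58, the Ighv1 gene of the block nearest to D in the reference order, kept 1 junction in 4 INV BM libraries against 1753 in 3 WT BM libraries. In place of these, 4 minus-strand sites with no annotated gene and no WT BM junction rose; they could be tested only through INV BM, which fixed their direction. Lower sites were common in the whole VH region as well.

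Over all sites, 26 of 72 block sites tested were lower and 4 higher in INV BM (limma with voom weights, adjusted p under 0.05 over the 340 VH sites tested). Counted against VH junctions alone 21 were lower and 28 higher, and against all junctions 20 and 11. In the whole VH region 49.7% of sites were lower and 5.0% higher, so the block's share of lower sites lay below the background and its share of higher sites close to it. Of the 72 sites, 39 had no junction in 1 of the groups, so the filter fixed their direction. Among these were 28 of the 29 minus-strand sites with no annotated gene, which entered through INV BM alone. The share of lower sites thus also depends on which sites passed the filter. The median log2 difference was -1.08 for the 72 sites, or -0.37 with the 39 sites at 0 in a group set at their bound, against -3.15 for all VH sites. For the 15 Ighv1 plus-strand sites it was -5.87, ranging from -10.65 to -3.44. Libraries did not overlap at 22 lower and 9 higher block sites, with 40.3% and 9.12% in the VH region.

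Ighv1-64 dropped from the WT BM values above to 29.4, 13.1, 15.6 and 31.2 per 100000 in INV BM, a log2 difference of -5.46 (SE 0.49, limma adjusted p 2.15e-08). Ighv8-8 stood at 17.3, 14.3, 19.7 and 13.6 in INV BM (log2 difference -5.56, SE 0.43, limma adjusted p 5.19e-09). Neither gene's groups overlapped. Ighv1-58, at 314, 210 and 177 in WT BM, was at 0.142 in INV BM replicate 1 and at 0 in the rest, a pooled ratio of 4692 (95% counting interval 841 to 185437). Ighv1-63 went from 355, 189 and 410 to 3.70, 0, 1.12 and 1.22 (log2 difference -8.16), and Ighv1-66 from 218, 121 and 154 to 1.56, 1.27, 0 and 4.66 (-7.06). In the reference order these genes lie nearer to D than Ighv1-67.

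The smallest falls were at Ighv8-11 and Ighv1-72. Ighv8-11 read 157, 275 and 233 per 100000 in WT BM and 29.6, 13.1, 20.1 and 18.03 in INV BM (log2 difference -3.23, SE 0.42, limma adjusted p 1.68e-06), and with all junctions as library size it was not called (-1.82, limma adjusted p 0.0948). Ighv1-72 read 65.7, 60.2, 48.0 and 64.2 in INV BM (-3.44, SE 0.22, 8.39e-10) and was the most used site in each of the 4 INV BM libraries. It took 10.5% ± 1.49 of the block's junctions in WT BM and 18.1% ± 1.74 in INV BM, with no overlap between libraries. Although Ighv8-8 and Ighv8-11 share their printed letters, Ighv8-8 took 10.8% ± 1.51 and 5.02% ± 1.35 of the block, and Ighv8-11 took 3.50% ± 1.26 and 6.03% ± 1.44. Ighv8-9, the least used of the Ighv8 genes with a called site, had 188 junctions in WT BM and 15 in INV BM (log2 difference -5.02).

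Bins by position follow the reference coordinates, and the order in the inverted locus is not known. The first 100 kb of the block, from its lower-coordinate end, took 21.4% ± 2.52 of the block's junctions in WT BM and 9.30% ± 2.07 in INV BM. The fifth bin of 100 kb, which holds Ighv1-72, took 10.7% ± 1.499 and 26.6% ± 2.29. The last bin, with Ighv1-74, Ighv1-75 and Ighv1-76, took 24.8% ± 1.14 and 24.1% ± 1.79.

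**Figure D2:**
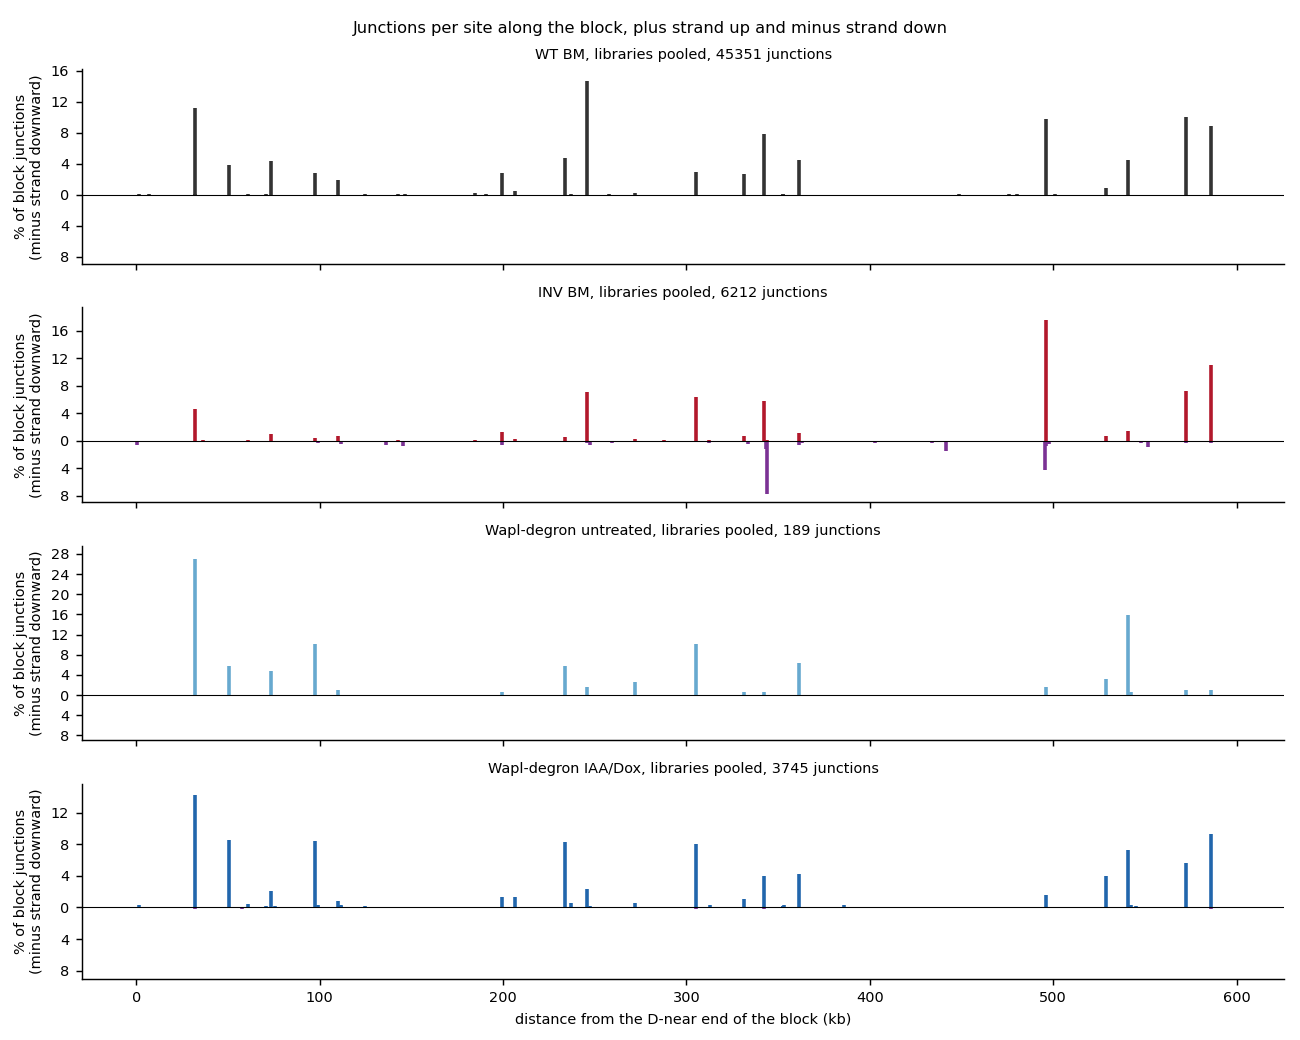
Percent of the block's junctions at each site (pooled over the libraries of a group) against the distance in kb from the end of the block that is D-near in the mm9 reference, with plus-strand sites drawn upward and minus-strand sites downward. The 4 panels are WT BM (45351 junctions), INV BM (6212), and the Wapl-degron line untreated (189) and with IAA and Dox (3745). Minus-strand sites are visible in INV BM, where they hold 27.2% to 34.3% of the block's junctions by library, and hardly at all in the other panels.

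As a share of VH junctions the block differed by -9.76 percentage points in INV BM against WT BM (two-sided exact permutation test, p 0.0571, the smallest that 3 against 4 libraries allow, adjusted p 0.160 over 32 share tests), with no overlap. This direction depended on Ighv5-2, the D-near VH gene known for its frequent use: with its junctions left out of the VH total, the block took 14.1% ± 1.90 in WT BM and 20.7% ± 1.91 in INV BM. As a share of distal VH junctions, those beyond the midpoint of the VH region at 116025563, it was 42.0%, 37.8% and 37.9% in WT BM and 33.1%, 31.4%, 29.8% and 35.3% in INV BM. These did not overlap either (difference of means -6.85 percentage points, exact permutation p 0.0571, adjusted p 0.160). Within the sequencing runs that held both groups, the VH share was 3.40% against 11.9% in the second run (3 INV BM and 2 WT BM libraries) and 3.09% against 15.3% in the seventh (1 each).

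Minus-strand joints made up a larger share of junctions in INV BM, in the block and in other distal VH sequence alike. They made up 34.3%, 27.3%, 33.5% and 27.2% of the block's junctions there and 0.182%, 0.491% and 0.422% in WT BM. The difference was 30.2 percentage points (exact permutation p 0.0571, adjusted p 0.160), with every INV BM library above every WT BM library, and 29.3% against 0.457% and 34.3% against 0.182% within the 2 shared runs. In counts they were 974, 257, 254 and 455 in INV BM, from 268652 to 703241 D plus VH junctions per library. WT BM had 51, 49 and 31, from 120067 to 378840. The block's junctions were fewer per D plus VH junction in INV BM, so the shares differ more than minus-strand joints per D plus VH junction. In the rest of the distal VH region the share was 38.9%, 35.5%, 39.7% and 39.1% in INV BM, above the block in each library, and 0.356%, 0.731% and 0.807% in WT BM. In all of the VH region outside the block it was 3.83% to 4.54% in INV BM and 0.496% to 0.611% in WT BM. Minus-strand sites with no annotated gene held most of the block's share, 26.9% ± 2.64 of the block's junctions in INV BM and 0.0136% in WT BM. At least 1 INV BM junction was found at 99 minus-strand sites of any depth, and at least 1 WT BM junction at 9.

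Of the 4 minus-strand sites that rose in INV BM, the 3 most used are shown, with a second site that shares a stretch of 18 letters with the first, aagaacCACTGTGgtact, and a minus-strand site at a gene for comparison. Their letters are read from the plus strand, in the same frame as above, with the best match to the heptamer that begins with CAC in capitals.
position 116843830 (minus): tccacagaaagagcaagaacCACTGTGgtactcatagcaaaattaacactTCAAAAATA
position 116747412 (minus): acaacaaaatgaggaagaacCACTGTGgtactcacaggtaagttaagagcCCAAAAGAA
position 116995698 (minus): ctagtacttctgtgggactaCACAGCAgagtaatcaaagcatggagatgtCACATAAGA
position 116941764 (minus): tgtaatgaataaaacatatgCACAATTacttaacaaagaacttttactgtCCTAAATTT
Ighv1-64 (minus): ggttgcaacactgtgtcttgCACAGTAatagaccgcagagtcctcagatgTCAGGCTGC
They lie at chr12:116843811-116843869, chr12:116747393-116747451, chr12:116995679-116995737, chr12:116941748-116941806 and chr12:116745741-116745799. The last is the embedded heptamer near the coding end of Ighv1-64, a feature of VH genes known from VH replacement, and the same 59 letters stand at the minus-strand sites of Ighv1-59, Ighv1-62-3 and Ighv1-69.

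Position 116843830 on the minus strand held 276, 49, 60 and 98 junctions in the INV BM libraries, 104 distinct ones among 483, and none in WT BM. That is 39.2, 15.6, 22.3 and 19.8 per 100000, at least 14.3-fold above a floor of 3 junctions per WT BM library (limma adjusted p 4.34e-05). Position 116995698 held 98, 55, 40 and 77 (at least 9.11-fold, limma adjusted p 7.00e-05), with 78 distinct junctions among 270. Both were present in all 4 INV BM libraries at levels close to that of Ighv8-11 on the plus strand. Position 116941764 held 32, 22, 18 and 22 (at least 3.34-fold, limma adjusted p 0.00194). Its 59 letters also stand at positions 116500621 and 116645613 on the minus strand, which held 38 and 53 INV BM junctions and were not called, so how reads were divided among the 3 is uncertain. Position 117051879, the fourth, held 32, 15, 3 and 10 (at least 1.83-fold, limma adjusted p 0.0166). All 4 entered the test through INV BM alone, which fixed their direction, so these p-values cannot serve as support for a rise. In the 18 line libraries these 4 sites held 1 junction in all, at position 116843830 in the untreated single-Igh line.

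The most used of them lies 1369 bp from Ighv1-67, and its letters recur beside other Ighv1 genes. After its values were seen, those 18 letters were searched on both strands with at least 16 matches, which gave 14 copies in the block and 18 in the VH region, and 11 of the 14 had a minus-strand junction in INV BM. The copies in the block held 672 INV BM minus-strand junctions, 189 of them outside the most used copy, and 0 in WT BM. The letters came from that copy, and no share for other stretches was set beside these counts, so they are descriptions. In WT BM, minus-strand sites with no annotated gene held only 0.0136% of the block's junctions. Of the 14 copies, 8 lie 1180 to 1684 bases beyond the higher-coordinate, upstream end of an Ighv1 gene: Ighv1-59, Ighv1-61, Ighv1-62-3, Ighv1-64, Ighv1-67, Ighv1-69, Ighv1-72 and Ighv1-74. The copy beyond Ighv1-64 held 43 INV BM minus-strand junctions and the copy beyond Ighv1-61 held 21. In the Wapl-degron line with IAA and Dox the same letters were met from the other side: 12 plus-strand junctions at the copy of Ighv1-61, 12 at that of Ighv1-74 and 9 at that of Ighv1-59. The copy near Ighv1-67, first in INV BM, had 0 there.

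At the genes themselves, minus-strand joints of the Ighv1 family took 0.0963%, 0.271% and 0.286% of the block's junctions in WT BM and 4.26%, 2.55%, 3.56% and 2.39% in INV BM, without overlap; this was not tested. Per 100000 D plus VH junctions, of 9 gene sites tested on the minus strand none rose, and 1 fell, Ighv8-11 (minus), from 6.34, 13.3 and 5.83 per 100000 in WT BM to 0, 0.319, 1.49 and 0 in INV BM (log2 difference -5.00, limma adjusted p 0.000999).

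Removal of Wapl was examined by setting treated against untreated libraries of the Wapl-degron line. In the block 28 sites held the 10 junctions needed for a test, and all 28 rose; in the whole VH region 89.1% of 138 sites were higher and 4.35% lower. Of the 28, 9 had no untreated junction and entered the test through the treated libraries alone, which fixed their direction, so the count describes the tested sites and not all sites of the block. The 13 Ighv1 gene sites had a median log2 difference of 6.62, the 3 Ighv8 gene sites 5.99 (5.61 with the site at 0 set at its bound), and the 12 sites with no gene 5.05 (2.38 at their bound). Over the 28 block sites the median was 5.73 (5.63 at the bound) and over all VH sites 5.00. Libraries did not overlap at 27 of the 28, with 88.4% higher and 4.35% lower in the VH region.

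With the intervals left out by the rule not counted, Ighv8-8 was the most used site in all 3 treated libraries. It is the Ighv8 gene nearest to D in the block. It stood at 4.38, 3.30 and 1.64 per 100000 untreated and 141, 114 and 165 with IAA and Dox, a log2 difference of 5.61 (SE 0.41, limma adjusted p 2.29e-35, from a spread shared over sites). Ighv1-76, at the far end of the block, had 2 junctions in the 3 untreated libraries and 349 in the treated ones, which stood at 82.6, 84.4 and 99.5 per 100000 (pooled ratio 821, 95% counting interval 226 to 6806). The rise thus reached both ends of the block. Ighv1-58 went from 11 junctions to 319 (67.1, 65.4 and 120 per 100000; log2 difference 7.05), Ighv1-75 from 2 to 210 (pooled ratio 494, interval 135 to 4106) and Ighv1-67 from 1 to 147 (692, interval 122 to 27502). Ighv8-11 rose from 19 to 299 (log2 difference 5.99), and Ighv8-9 from 0 to 52, at least 20.4-fold.

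The block's share of VH junctions was 20.9 percentage points higher with IAA and Dox and its share of D plus VH junctions 0.964 points higher, each with no overlap (exact permutation p 0.1, the smallest for 3 against 3 libraries; adjusted p 0.160). Within distal VH junctions, by contrast, it was 31.2% ± 8.24 untreated and 38.3% ± 1.56 treated, and libraries overlapped (exact permutation p 0.4, adjusted p 0.533). The fifth run, which both groups share, gave a VH share of 21.1% for 1 treated library and 1.33% for 3 untreated ones.

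Block sites rose under IAA and Dox in the single-Igh line as well. The 26 tested block sites were called higher, with 91.0% of 145 sites higher and 3.45% lower in the VH region. Of the 26, 10 had no untreated junction, and their direction was likewise fixed by entering through the treated libraries. In all, 24 of the 26 did not overlap between groups, against 79.3% higher and 3.45% lower. The median log2 difference was 6.02 (5.52 with sites at 0 set at their bound), 6.73 for the 13 Ighv1 (5.98 at the bound) and 5.44 for the 3 Ighv8 gene sites, against 4.93 for all VH sites. With the sequencing run as a term in the fit 13 of the 26 were called.

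Among the block's counted sites Ighv8-8 again led all 3 treated libraries. It stood at 187, 150 and 188 per 100000 against 7.55, 4.16 and 3.35 untreated (log2 difference 5.29, SE 0.32, limma adjusted p 7.00e-09). Ighv1-76 stood at 135, 100 and 118 against 7 junctions in all untreated libraries (log2 difference 7.91). Ighv8-11 had 407 junctions against 44 (5.44), Ighv8-9 had 103 against 2 (pooled ratio 205, 95% counting interval 55.3 to 1714), and Ighv1-66 had 59 against 0 (at least 22.4-fold). With the run as a term Ighv8-9 and Ighv1-66 were not called (limma adjusted p 0.111 and 0.146), although their log2 differences stayed large (8.54 and 7.68). In all 5 genes every treated library lay above every untreated one. The VH share was 22.0 percentage points higher and the share of distal VH junctions 8.04 points higher (exact permutation p 0.1, adjusted p 0.160 for each), and the sixth run held 2 treated libraries at 22.4% and 1 untreated at 1.39%. The effect on the VH share differed between the Wapl-degron and single-Igh lines by -1.16 percentage points (exact permutation p 0.45, adjusted p 0.576, 400 arrangements).

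Treated lines and bone marrow drew on the block's genes in different proportions. Ighv1-64 and Ighv1-72, which took 13.4% ± 2.72 and 10.5% ± 1.49 of the block in WT BM, took 2.36% ± 0.108 and 1.64% ± 0.0968 of it in treated Wapl-degron cells and 1.87% ± 0.154 and 1.72% ± 0.327 in treated single-Igh cells. Ighv8-8, Ighv8-11, Ighv1-58 and Ighv1-61 took larger shares there: 14.4%, 8.09%, 8.47% and 8.24% in the Wapl-degron line, against 10.8%, 3.50%, 3.55% and 2.62% in WT BM. Ighv1-76 was nearly level, at 9.03% ± 1.55, 9.25% ± 1.04 and 10.0% ± 0.208. Across the 18 genes Spearman's rho was 0.940 between the treated lines, 0.783 between WT BM and INV BM, 0.535 between WT BM and the treated Wapl-degron line and 0.404 between WT BM and the treated single-Igh line. These are descriptions, since genes share libraries and some share sequence.

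**Figure D3:**
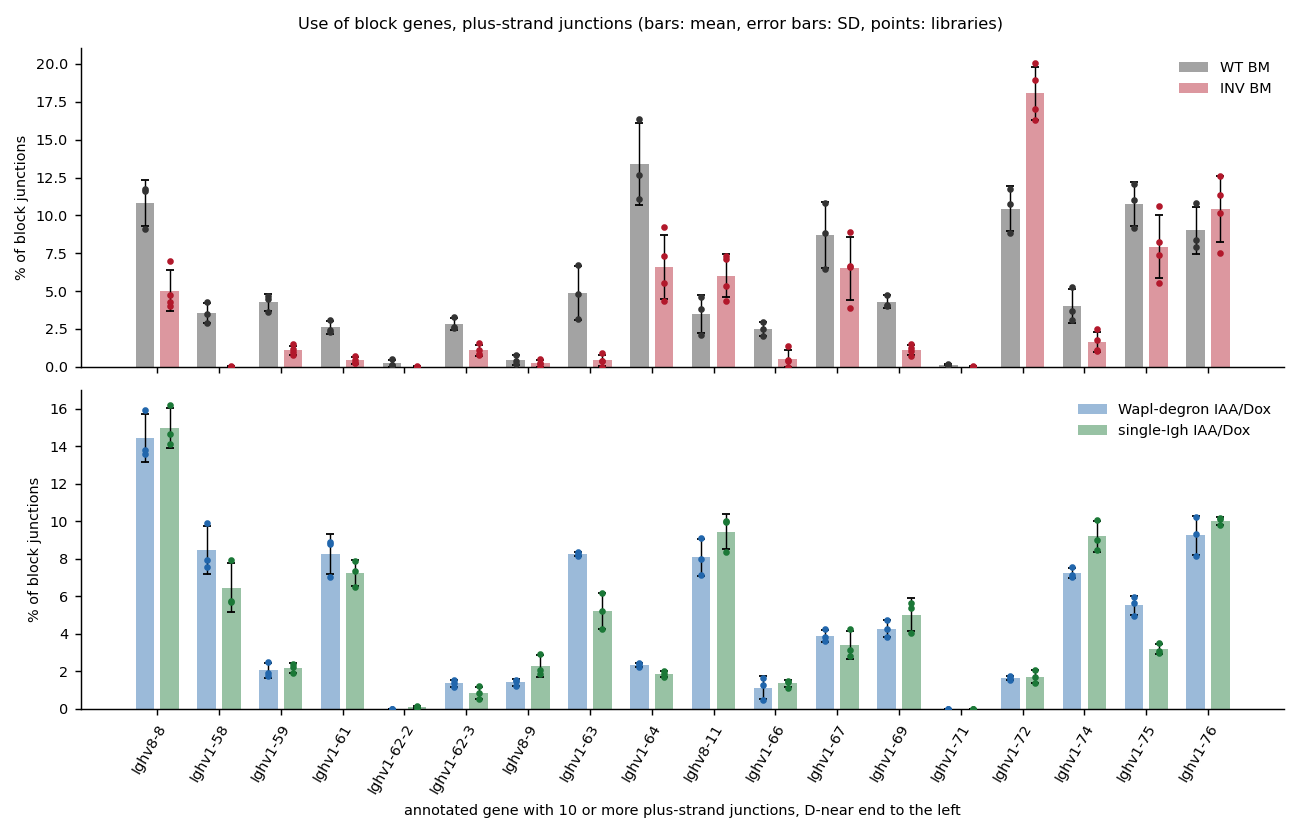
Percent of the block's junctions at each of the 18 genes with at least 10 plus-strand junctions, ordered from the end that is D-near in the mm9 reference (left), with bars for group means, whiskers for SD and points for libraries. The upper panel shows WT BM and INV BM, the lower the Wapl-degron and single-Igh lines with IAA and Dox. Ighv1-64 and Ighv1-72 are tall in bone marrow and at most 2.44% in any treated library of the lower panel, which Ighv8-8 leads.

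The Ighv8 family as a whole held 15.3% ± 1.27 of the plus-strand Ighv1 and Ighv8 junctions of the block in WT BM and 16.98% ± 4.17 in INV BM. The treated Wapl-degron and single-Igh lines had 27.4% ± 2.56 and 31.6% ± 2.48, and the same lines untreated 40.4% ± 5.57 and 46.9% ± 6.95, on few junctions. The parental line had 71.4%, 49.5% and 27.7%, the last of them within the range of the uninverted treated lines. The inverted single-Igh line held too few junctions for a ranking, with 0% of 1 junction in replicate 1 and 10.7% in replicates 2 and 3, whose whole block came from 11 and 7 distinct joints.

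Wild-type bone marrow was also set directly against the treated Wapl-degron line. Per 100000 D plus VH junctions, 18 of 47 block sites were higher in bone marrow and 4 lower, against 49.4% and 3.21% of 249 sites in the VH region. All 15 Ighv1 gene sites were higher (median log2 difference 3.81, or 2.90 with sites at 0 at their bound), as were 2 of the 3 Ighv8 sites. Ighv1-72 differed by 5.44 (SE 0.52, limma adjusted p 2.39e-08), Ighv1-64 by 5.27 (SE 0.54, 3.91e-08), Ighv1-75 by 3.71, Ighv8-8 by 2.36 and Ighv8-11 by 1.41. Ighv1-62-2 had 83 junctions in bone marrow and 0 in the line (at least 5.77-fold; not called without replicate 3 of the line), and Ighv8-9 did not pass (log2 difference 0.90, limma adjusted p 0.331).

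These directions rest on the denominator and on counting every junction. Counted against VH junctions alone, 1 block site was higher in bone marrow and 20 were lower; the site that stayed higher was Ighv1-72 (log2 difference 1.88, limma adjusted p 0.0103), while Ighv1-64 stood at 1.71 (0.0769), Ighv8-8 at -1.17, Ighv8-9 at -2.64 and Ighv8-11 at -2.14. With distinct junctions only, Ighv8-11 was lower in bone marrow (-1.31, limma adjusted p 4.87e-06), as was Ighv8-9 (-1.17, limma adjusted p 0.0142), and Ighv8-8 stood at -0.19. Against all junctions 3 block sites were higher, and Ighv8-8, Ighv8-11 and Ighv1-75 were not called (limma adjusted p 0.564, 0.981 and 0.0564). The 4 sites lower in bone marrow per D plus VH junction had 10 to 12 junctions in the line and none in bone marrow (at least 1.55-fold to 1.76-fold), so they entered the test through the line alone and their direction was fixed. Of the 47 tested sites 10 had no junction in one of the groups. No block site was called lower in bone marrow when any 1 library of the line was left out, and 1 was without WT BM replicate 1. The block's VH share differed by -9.12 percentage points in bone marrow against the line and its D plus VH share by 5.54 points (exact permutation p 0.1, adjusted p 0.160 for each), and the share of distal VH junctions overlapped, at 39.2% ± 2.36 and 38.3% ± 1.56 (exact permutation p 0.7, adjusted p 0.800).

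In the inverted single-Igh line with IAA and Dox the block held 1, 34 and 33 junctions, of which 1, 11 and 7 were distinct, against 1169, 1931 and 1168 in the single-Igh line treated alike. Of 27 tested sites 26 fell and 1 rose, against 91.2% and 3.38% of 148 sites in the VH region. Of the 27, 20 had no junction in one of the groups, so the filter fixed their direction. The median log2 difference was -5.53 (-3.40 with sites at 0 at their bound) against -5.08 for all VH sites. Libraries did not overlap at 24 of the 26, with 83.8% in the VH region. Counted against VH junctions alone, 11 block sites were lower.

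Ighv8-8 had 0, 0.479 and 0.319 junctions per 100000 there (2 junctions against 637, pooled ratio 491, 95% counting interval 135 to 4063). Ighv1-74 and Ighv1-58 had none against 391 and 270, at least 43.2-fold and 30.7-fold lower, and Ighv8-9 none against 103 (at least 10.6-fold lower). Most of the 68 junctions that remained were at Ighv1-64, with 25 junctions (0, 6.22 and 3.82 per 100000), and Ighv1-76, with 22 (0, 4.79 and 3.82; log2 difference -5.19, limma adjusted p 2.17e-08). With VH junctions as library size Ighv1-76 was not called (-1.62, limma adjusted p 0.0752). Ighv8-11 had 4 junctions, Ighv1-59 had 2 and Ighv1-61 had 1, and the only one of replicate 1 was at Ighv1-62-3. The site that rose, position 116501109 on the minus strand, had 0, 6 and 5 junctions, 2 distinct, and its libraries overlapped with those of the uninverted line (limma adjusted p 0.0269). It was not called without any 1 library of the inverted line, or without replicate 2 or 3 of the uninverted one. Against the uninverted line the block's VH share differed by -21.5 percentage points and its share of distal VH junctions by -18.5 points (exact permutation p 0.1, adjusted p 0.160 for each). With 1 library left out at a time the distal difference ranged from -23.5 to -12.2 points.

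Minus-strand joints made up 0 of 1, 6 of 34 (17.6%, 95% Wilson interval 8.35% to 33.5%) and 5 of 33 (15.2%, 6.65% to 30.9%) block junctions in that line, and 0.941%, 1.29% and 1.46% in the uninverted one, with overlap (exact permutation p 0.4, adjusted p 0.533). In the inverted line these block junctions all lay at position 116501109 and came from few distinct joints. The intervals count copies as separate joints and are thus too narrow. In the rest of the distal VH region minus-strand joints were 4 of 8, 24 of 67 and 15 of 93 junctions of the inverted line. The change that goes with the inversion was smaller in the VH share in bone marrow than in the line, by 11.8 percentage points, and larger in the minus-strand share of the block, by 20.5 points (exact permutation of the cell kind among inverted and among uninverted libraries, 700 arrangements, p 0.00286, the smallest possible; adjusted p 0.0457 for each). With 1 of the 13 libraries left out at a time the differences ranged from 10.8 to 12.9 and from 15.0 to 23.9 points. The adjusted p of both was then 0.08 to 0.107, at the smallest unadjusted p that the remaining libraries allow (0.005 to 0.00667), so this could not test whether the calls hold. The uninverted groups already differed in VH share, at 11.9% to 15.3% in WT BM and 21.1% to 25.4% in the treated single-Igh line. Bone marrow could therefore not fall by as many points as the line, which differed by -21.5. For the VH share the test cannot tell that gap from a difference in the effect of the inversion. For the minus-strand share the inverted line's values rest on that single site and on 1 junction in replicate 1.

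The untreated Wapl-degron and parental lines were compared to see what the degron does without IAA and Dox. No block site of 10 tested differed by limma with voom weights, nor any of 73 in the VH region (0.0%), and 0 in either had an unadjusted p under 0.05. Libraries did not overlap at 0 of the 10 block sites, with 1.37% of VH sites higher and 2.74% lower in the degron line. Limma on log values with a trend gave 0 block sites at that unadjusted p as well. Ighv8-8 had 51 junctions in the degron line, or 2.73 per 100000 over its libraries, and 54 in the parental line, or 3.70 (pooled ratio of parental over degron 1.35, 95% counting interval 0.907 to 2.03). Ighv8-11 had 19 against 24 and Ighv1-74 had 30 against 15 (limma adjusted p 0.899 for each). The VH share was 1.33% ± 0.650 against 1.28% ± 0.467 (exact permutation p 1.0), with libraries overlapping. At 29 to 108 block junctions per library, small differences were not detectable.

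The letters between bait and prey showed what the block was joined through. Ighd1-1, also called DFL16.1, is 1 of the D segments joined before a VH gene is added.
Ighd1-1: tttattactacggtagtagctac
It lies at 114720381 to 114720403 on the minus strand. A junction was counted as holding it when 7 or more bases in a row between the aligned ends matched it and no other D segment better, a measure chosen after the gaps were seen.

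In untreated lines the few joints to the block carried Ighd1-1 more often than joints to the rest of the VH region. The parental line had it in 96.6%, 75.9% and 84.9% of block junctions and 51.5%, 50.6% and 51.3% of the others. The Wapl-degron line had 78.9%, 78.9% and 76.8% against 51.7%, 53.3% and 55.7%, and the single-Igh line 70.6%, 78.2% and 70.3% against 41.0%, 42.2% and 40.6%. The block was higher in 9 of 9 untreated libraries. The 96.6% of parental replicate 1 came from 29 block junctions, of which 6 were distinct (83.3% of the distinct ones).

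With IAA and Dox the values of the block and the rest overlapped. The Wapl-degron line had Ighd1-1 in 32.1%, 32.3% and 34.3% of block junctions and 33.5%, 33.96% and 34.1% of the others. The single-Igh line had 34.7%, 28.4% and 31.3% against 34.1%, 28.9% and 35.6%. They also overlapped in WT BM, at 35.8%, 37.8% and 34.8% against 31.1%, 36.0% and 36.4%. In INV BM all 4 libraries had more in the block, 33.5%, 34.8%, 33.2% and 31.4%, against 21.5%, 21.0%, 21.4% and 21.2%. The inverted single-Igh line had it in 44.1% of 34 and 72.7% of 33 block junctions in replicates 2 and 3, drawn from 11 and 7 distinct joints, and 0 of 1 in replicate 1. No test was made of these shares. In INV BM most of the rest of the VH region was Ighv5-2, since the block's VH share rose severalfold with that gene left out. Ighd1-1 shares were not taken for Ighv5-2 and for other distal VH genes apart, in INV BM or in any other group.

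**Figure D4:**
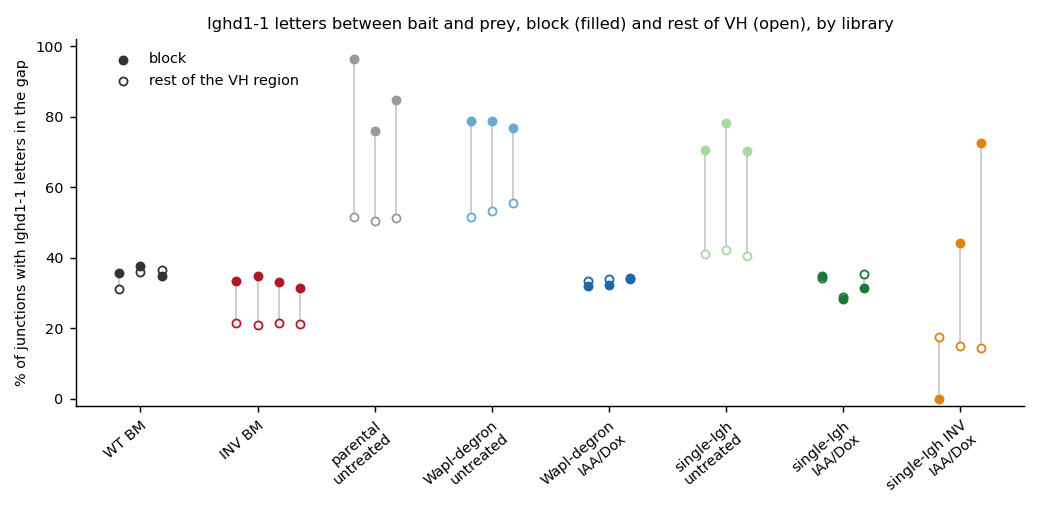
Percent of junctions whose letters between bait and prey match Ighd1-1 over at least 7 bases, by library and group, for the block (filled points) and the rest of the VH region (open points). In the 9 untreated libraries the block lies at 70.3% to 96.6% and the rest at 40.6% to 55.7%, whereas both overlap in WT BM and in the uninverted lines with IAA and Dox.

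The gap itself was shorter in the uninverted lines with IAA and Dox than in bone marrow or in the untreated lines, as described here with no test. Gaps of at least 10 bases stood in 87.8% to 91.6% of block junctions in WT BM, 84.8% to 87.0% in INV BM and 59.6% to 63.6% in the uninverted treated lines. Untreated lines had 76.3% to 100.0%, on 29 to 119 block junctions per library, and overlapped bone marrow. The inverted treated line had 38.2% and 39.4% in replicates 2 and 3. Median gaps were 18 to 19 bases in WT BM, 16 to 18 in INV BM, 11 to 12 in the uninverted treated lines and 14 to 18 in the untreated ones. The rest of the VH region gave 85.6% to 88.0% in WT BM, 84.7% to 85.9% in INV BM and 59.2% to 63.7% in the uninverted treated lines. In the 9 untreated libraries it gave 65.6% to 78.6%, below the block of the same library in each. In replicates 2 and 3 of the inverted line it gave 54.6% and 50.5%, above the block.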

How the data were processed

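The deposited lists hold 1 junction per line with prey position, strand and alignment ends, per the file headers. The submitters' processing notes name Bowtie2 and mm9; the version is not given in the sources used here. Filters on repeats, mapping quality and duplicates are named in the headers without thresholds, and can move reads among near-identical VH genes. Counts per site were made here from these lists. Sequencing runs were read from the start of the read names, since the labels name none, and numbered in sorted order. Each library took its most frequent run, and replicate 3 of the treated Wapl-degron line held reads of 2. Sites holding 10 or more junctions over both groups of a comparison entered limma 3.58.1 (voom, prior count 0.5, R 4.3.3) over all VH sites, with D plus VH junctions as library size. Two-sided exact permutation tests, coded here over all arrangements (Python 3.11.15), compared shares, adjusted by Benjamini-Hochberg over 32 tests. Counting intervals used scipy 1.17.1. Named sites are the 3 most used and the 3 with the largest called, non-overlapping difference per comparison, plus Ighv8 genes; positions and genes named beyond this were chosen after their values were seen. Gene names followed the mm9 annotation, 13 of the block's entries being renamed through the gene name table. The block, lists and tests were chosen with earlier results of these data known. All pairs of replicates differed over the JH, D and VH regions (chi-square, largest p 5.38e-05), and all were kept. The limma test of sites was also run on simulated counts in which a minority of sites changed, in both directions. In the IAA and Dox comparisons most tested sites moved the same way, so that run does not cover them.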

Additional observations from a re-analysis of the deposited data

Results flagged for a closer look

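Ighv1-58 was a value far from its group in INV BM: 1 library held 0.142 junctions per 100000, which was a single junction, and the other three held 0, so the gap was the whole range (ratio 1.0). A single junction in 1 library and 0 in the rest always gives this ratio, so the flag followed from the count and does not mark an unusual library.

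A pair of differences of effects stood out between cell kinds. The block's share of VH junctions was 11.8 percentage points less reduced with the inversion in bone marrow than in the single-Igh line with IAA and Dox (exact permutation p 0.00286, adjusted p 0.0457). Without the inversion it stood at 11.9% to 15.3% in bone marrow and 21.1% to 25.4% in the line, so bone marrow could not fall by as many points. The minus-strand share of the block was raised by 20.5 points more in bone marrow (p 0.00286, adjusted p 0.0457). With sites near annotated genes alone the differences were 8.18 points (VH share) and 5.98 points (minus-strand share). With the intervals left out by the rule counted in they were 19.9 and 17.9 points. Neither share passed in either setting (exact permutation, adjusted p 0.0914 to 0.152). The inverted line held 1, 34 and 33 block junctions, and its minus-strand ones all lay at position 116501109. With 1 library left out at a time the differences ranged from 10.8 to 12.9 and from 15.0 to 23.9 points, each at the smallest p that the remaining libraries allow, which did not pass after adjustment.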

How the results depend on the processing

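Few block junctions in the inverted line and the untreated lines, replicate origin and the choice of library size limit these results. The falls at the block's gene sites in INV BM and the rises with IAA and Dox kept their direction at every named site under each alternative run. All share differences are in percentage points, first group minus second. With Ighv5-2 left out, the VH share of INV BM against WT BM turned to 6.56. With distinct junctions, the D plus VH share of untreated Wapl-degron against parental cells turned to 0.0312. With the intervals left out by the rule counted in, the values that turned were the minus-strand share for single-Igh treated against untreated (-0.376), the VH and distal shares for untreated Wapl-degron against parental (-0.294 and -4.66), the distal share for WT BM against treated Wapl-degron (-13.9), and the difference of the IAA and Dox effects between lines in the VH and distal shares (0.0932 and 0.986); the difference of the inversion effects went to 19.9 in the VH share and 17.9 in the minus-strand share, both no longer past the threshold (adjusted p 0.152 and 0.0914). With sites near annotated genes alone, the minus-strand share for the inverted against the uninverted line turned to -1.15 and the difference of IAA and Dox effects to 0.369 (distal) and -0.339 (minus strand), and the inversion effects differed by 8.18 and 5.98, not past the threshold. With the block narrowed by 50 kb at each end, the minus-strand share for the inverted line turned to -1.66. The cause of these shifts was not tested.

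Site calls moved with the settings. Sites higher in INV BM were 28 with VH junctions as library size, 11 with all junctions, 8 with at least 1 junction per site, 2 with at least 100, 8 with limma trend, 11 with its prior count scaled to depth (an alternative chosen after seeing the data) and 7 with the run as a term. Sites higher with IAA and Dox were 75 and 11 in the Wapl-degron line and 72 and 12 in the single-Igh line with at least 1 and at least 100 junctions, since more and fewer sites were tested, and 13 in the latter with the run as a term. The 1 site higher in the inverted line went to 0 with at least 1 junction, at least 100 junctions, distinct junctions, both trend fits and the run as a term; lower sites there were 11 with VH junctions as library size and 13 with at least 100. For WT BM against treated Wapl-degron cells, 1 site was higher and 20 lower with VH junctions as library size, 3 were higher with all junctions, and lower sites were 0 with at least 100 junctions and 8 with distinct junctions. In that comparison log2 differences turned to -1.17 (Ighv8-8), -2.64 (Ighv8-9), -2.14 (Ighv8-11) and -1.14 (Ighv8-11 minus) with VH junctions as library size, to -0.19, -1.17, -1.31 and -0.61 with distinct junctions, and to -0.58 for Ighv8-9 with all junctions. Ighv8-8 in untreated Wapl-degron against parental cells turned to 0.10 with distinct junctions.

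Leaving out 1 library at a time gave 10.8 to 12.9 for the difference of inversion effects in the VH share and 15.0 to 23.9 in the minus-strand share. Values that lay on both sides of 0 were the distal share of WT BM against treated Wapl-degron cells (-0.469 to 1.60), the VH, distal and D plus VH shares of untreated Wapl-degron against parental cells (-0.290 to 0.358, -2.13 to 7.14, and -0.00395 to 0.000823), the difference of IAA and Dox effects in the distal (-4.22 to 3.71) and minus-strand (-0.251 to 0.530) shares, and the log2 difference of Ighv8-8 in untreated Wapl-degron against parental cells (-1.11 to 0.40). Sites called higher in the inverted line numbered 0 to 1, and those called lower in WT BM than in treated Wapl-degron cells 0 to 4. Equal replicate numbers did not pair libraries (correlations of deviations from -0.202 to 0.184), and with the replicate number as a block the block sites called were 4 higher and 26 lower in INV BM, 28 and 26 higher with IAA and Dox, 26 lower in the inverted line, and 18 higher and 6 lower in WT BM against treated Wapl-degron cells.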
